A study of Mus musculus with 17 samples.

Results

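The aminoacyl-tRNA synthetases were taken as a list of 36 gene symbols, 20 for cytosolic and 16 for mitochondrial enzymes (symbols ending in 2), and all 36 were found among the 23282 genes of the deposited table. Symbols are given as in that table. The values that follow come from 17 Smart-seq2 libraries of polyadenylated RNA from sorted male germ cells of C57BL/6 mice (C57BL/6J in the study's methods): spermatogonia (SPG) and spermatocytes of the pre-leptotene (PreL) and the leptotene to zygotene (LZ) stages. Each stage was taken from wild-type (WT) mice and from mice labelled Stra8-cre Nat10 KO (Nat10-SKO), with 3 libraries per group and 2 for WT LZ. Nat10-SKO mice are Nat10 fl/-;Stra8-Cre. In them, Nat10, the gene of the enzyme that writes N4-acetylcytidine in RNA, has 1 allele with loxP sites around exons 4 and 5 and a null allele. The Cre recombinase is driven by Stra8, a gene that germ cells switch on as they commit to meiosis, so that by this genotype the somatic cells of the testis keep 1 copy of Nat10. The study calls the libraries of a group biological replicates. The age of the mice is not stated for these libraries, nor whether each library came from its own animal, so that p-values measure the spread between these samples.

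An aminoacyl-tRNA synthetase joins an amino acid to the tRNAs that read its codons, and is therefore used by every round of translation. The cytosol and the mitochondrion mostly use separate nuclear genes for the same amino acid, while Gars and Kars each give both forms. Several cytosolic enzymes sit together in a large complex held by the scaffold proteins Aimp1, Aimp2 and Eef1e1, and a number of cytosolic synthetase genes are known targets of ATF4, the transcription factor of the amino acid response.

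The synthetases took between 0.206% and 0.386% of the reads of a library, and depth ran from 5812380 to 13820953 recovered reads, lowest in the 3 Nat10-SKO LZ libraries (at most 7609420) and highest in the WT LZ libraries. Nat10 itself, the targeted gene, gave normalised values (deposited values rescaled by a size factor within a stage) of 460.2, 408 and 483 in WT SPG against 189, 261 and 282 in Nat10-SKO SPG. It gave 661, 729 and 480.5 against 282, 253 and 205 in PreL and 1134 and 1543 against 514, 379 and 533 in LZ, below every WT library at each stage. The log2 fold changes were -0.87, -1.29 and -1.47 (adjusted p = 0.0326, 0.00591 and 0.00469). Counts over the whole gene also take reads from outside the deleted exons.

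Markers of the sorted stages were read in all groups, with 8 differentiating spermatogonia markers at 0.0796% to 0.165% of reads, 9 undifferentiated ones at 0.00672% to 0.0475%, and the 11 early meiotic markers in the table at 0.573% to 0.651% in WT LZ and 0.367% to 0.552% in Nat10-SKO LZ. These are shares of reads, not rescaled by size factors. By the test used below, on rescaled values, 1 of the 11 early meiotic markers was lower in Nat10-SKO LZ and 0 were higher. The early meiotic markers took a higher share in Nat10-SKO than in WT in SPG (0.470% to 0.510% against 0.314% to 0.354%) and in PreL (0.711% to 0.998% against 0.487% to 0.584%). Those of later cells differed more between the genotypes. The 10 late spermatocyte markers summed to 0.381% to 0.688% of reads in WT LZ and to 0.0120% to 0.0137% in Nat10-SKO LZ, and to 0.0333% to 0.117% against 0.00690% to 0.00935% in PreL (Acr at 0 in Nat10-SKO). The 10 spermatid markers summed to 0.0640% to 0.106% against 0.000722% to 0.000981% in LZ (Acrv1 and Odf1 at 0 in Nat10-SKO), to 0.0606% to 0.101% against 0.00106% to 0.00150% in PreL, and to 0.0115% to 0.0334% against 0.000445% to 0.000932% in SPG (Acrv1 and Akap4 at 0 in Nat10-SKO). The 8 Leydig cell markers were the reverse, at 0.0115% to 0.0321% in Nat10-SKO LZ against 0.00260% to 0.00801% in WT LZ, and the 9 macrophage markers in the table at 0.00102% to 0.00384% against 0.000311% to 0.000541%. Leydig cell markers were also higher in Nat10-SKO PreL, at 0.00602% to 0.0604% against 0.000831% to 0.00326%. The 7 peritubular myoid cell markers were at 0.0271% to 0.0485% in Nat10-SKO SPG against 0.000268% to 0.00508% in WT SPG. By the test used below, 3 of the 5 tested were higher, beside 3.95% of all genes. Dcn was the largest of the list, at a mean of 4309 against 310 normalised units. Actg2 lay the other way, at 6.80 against 52.4, and did not pass. Sertoli cell markers were at 0.00630% to 0.00687% in WT PreL and 0.00633% to 0.0913% in Nat10-SKO PreL. In LZ they were at 0.0257% to 0.133% in WT and 0.0415% to 0.0574% in Nat10-SKO. By the test used below, 8 of 8 were higher in WT LZ than in WT PreL, beside 22.3% of all genes. In Nat10-SKO PreL against WT, 5 of 8 were higher, beside 5.32%. Endothelial cell markers reached at most 0.000950% of reads in any library. The part of these cells in the synthetase values was not tested, and in bulk libraries fewer cells of a type and less RNA per cell cannot be told apart.

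Cytosolic synthetases were the more abundant class. On the scale of all 17 libraries, per kilobase of exon and averaged over the 6 groups, the 20 cytosolic enzymes had a median level of 431, from 95.0 to 1455 (15.3-fold), and the 16 mitochondrial enzymes a median of 85.9, from 9.53 to 1251 (131-fold). Dars (aspartyl), Gars (glycyl, 1424), Rars (arginyl, 1284), Farsb (the beta subunit of the phenylalanyl enzyme, 1249) and Nars (asparaginyl, 975) led the cytosolic class. Below them came Kars (lysyl), Hars (histidyl), Iars (isoleucyl), Mars (methionyl), Eprs (the joint glutamyl and prolyl enzyme), Lars (leucyl), Tars (threonyl) and Qars (glutaminyl), all between 365 and 593, and then Vars (valyl), Farsa (the alpha subunit of the phenylalanyl enzyme), Sars (seryl), Aars (alanyl), Wars (tryptophanyl), Cars (cysteinyl) and Yars (tyrosyl), between 95.0 and 206. This order depends on exon length, which merged the exons of all annotated transcripts of a gene. Eprs (18102 bases, Dars 4358) took more reads than Dars in WT SPG, 5858, 5920 and 5728 against 3412, 2859 and 3088. In Nat10-SKO LZ Eprs took fewer, 1040, 1677 and 1361 against 1121, 1827 and 1766.

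Dars, at the top, gave levels per kilobase of 1224, 1274 and 1269 in WT SPG, 1651, 1421 and 1545 in Nat10-SKO SPG, 1319, 1222 and 1143 in WT PreL, 1556, 1332 and 1734 in Nat10-SKO PreL, 1387 and 1900.5 in WT LZ and 1401, 1484 and 1694 in Nat10-SKO LZ. Yars, at the bottom, gave 90.2, 85.0 and 81.0 in WT SPG, 82.6, 107 and 59.6 in Nat10-SKO SPG, 115, 124 and 92.3 in WT PreL, 77.3, 111 and 87.2 in Nat10-SKO PreL, 122 and 126 in WT LZ and 80.6, 71.5 and 73.1 in Nat10-SKO LZ. Dars differed by less than 2-fold over the 17 libraries and Yars by more, and the libraries of the genotypes overlapped at LZ for Dars but not for Yars.

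The mitochondrial class was headed by Rars2 (arginyl, 1251), Lars2 (leucyl, 697), Yars2 (tyrosyl, 293), Fars2 (phenylalanyl, 195) and Wars2 (tryptophanyl, 148). Nars2, Hars2, Iars2, Tars2, Sars2, Ears2 (glutamyl), Cars2, Vars2, Aars2, Mars2 and Pars2 (prolyl) followed, from 130 down to 9.53. Rars2 gave levels per kilobase of 1386, 1529 and 1717 in WT SPG, 1975, 1966 and 2460.5 in Nat10-SKO SPG, 1017, 1108 and 1284 in WT PreL, 1360.3, 1123 and 1437 in Nat10-SKO PreL, 821 and 1197 in WT LZ and 342, 397 and 383 in Nat10-SKO LZ. The Nat10-SKO libraries thus held both the highest group of Rars2 (SPG) and the lowest (LZ), 5.70-fold apart in their means.

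Pars2, the least abundant member, was at 7.07, 6.91 and 1.74 in WT SPG, 5.18, 1.44 and 1.69 in Nat10-SKO SPG, 11.6, 15.2 and 17.7 in WT PreL, 7.31, 9.76 and 14.4 in Nat10-SKO PreL, 17.3 and 16.2 in WT LZ and 5.28, 8.01 and 8.10 in Nat10-SKO LZ. It rested on 2 to 38 reads a library and, with a mean of 6.83 reads in SPG, was left out of the test there. Differences in Pars2 are at the edge of what this depth can show.

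Of the mitochondrial enzymes all but Fars2 were paired with the cytosolic enzyme for the same amino acid, Eprs standing for both Ears2 and Pars2. In these 15 pairs, the cytosolic gene had the higher mean level per kilobase in 12. The exceptions were Yars2, which was above Yars in all 17 libraries (ratio of Yars to Yars2 0.324), Lars2 above Lars (ratio of Lars to Lars2 0.609) and Wars2 above Wars (ratio of Wars to Wars2 0.703). The mean ratio of Rars to Rars2 was 1.03, but the order depended on the group, with Rars2 at 1.25 to 1.72 of Rars in Nat10-SKO SPG, 0.584 to 0.762 in WT PreL and 0.363 to 0.413 in Nat10-SKO LZ. For leucine the order depended on the group too, as Lars2 was at 0.382 to 0.869 of Lars in the WT PreL libraries, at 1.39 to 2.37 in Nat10-SKO PreL and at 2.72 to 5.52 in the 5 LZ libraries.

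The tryptophan pair changed places between the genotypes at LZ. Wars2 was at 0.252 and 0.168 of the level of Wars per kilobase in the WT LZ libraries, and at 11.2, 4.77 and 5.66 times that level in the Nat10-SKO LZ libraries. In the other 12 libraries the ratio lay between 0.464 and 3.57. No library of either LZ group came near the other's ratio.

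As a share of the reads of a library, the cytosolic enzymes together took 0.255% and 0.200% in the WT LZ libraries and 0.137%, 0.165% and 0.155% in Nat10-SKO LZ. The mitochondrial enzymes other than Lars2 took 0.0498% and 0.0445% against 0.0318%, 0.0335% and 0.0311%. Neither sum overlapped between the genotypes at LZ, but 3 against 2 libraries cannot go below p = 0.2 in the two-sided exact permutation test, which both sums gave. Shares of reads were not rescaled by size factors, so they also move with the other genes of a library. On rescaled values the median log2 fold change at LZ was -0.37 for cytosolic enzymes and -0.13 for all genes. In SPG and PreL the cytosolic sums overlapped (exact permutation p = 0.2 and 0.3, where 0.1 is the smallest possible). The mitochondrial sum without Lars2 was higher in Nat10-SKO PreL, at 0.0453% to 0.0470% against 0.0406% to 0.0452%, the opposite direction to LZ, with an exact permutation p of 0.1, the smallest possible. In SPG that sum overlapped (exact permutation p = 0.2).

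In SPG, no synthetase passed the test between the genotypes. A gene was counted as changed when limma, fitted over all genes of the comparison, gave a Benjamini-Hochberg adjusted p below 0.05 and a change of more than 2-fold. Of 35 members tested, 0 were lower and 0 higher in Nat10-SKO, where 2.06% of 12846 genes were lower and 3.95% higher. At an unadjusted p below 0.05, 5 members were lower and 3 higher. No share of all genes was counted at this cut, so these counts show no change particular to the members. Both edgeR and DESeq2 called 1 member, Wars2, as lower.

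The median log2 fold change in SPG was -0.06 for the cytosolic and -0.12 for the mitochondrial enzymes, beside 0.00 for all genes. All Nat10-SKO SPG libraries were below all WT SPG libraries for 4 members and above them for 3, where 14.4% and 15.2% of genes were so placed. Below 2-fold, Gars (-0.57, adjusted p = 0.0129), Qars (-0.53, adjusted p = 0.0219) and Wars2 (-0.96, adjusted p = 0.0412) had lower and Rars2 (0.45, adjusted p = 0.0491) higher log2 values in Nat10-SKO. At an adjusted p below 0.05 with no fold limit, 4.84% of all genes were lower and 6.22% higher. Lars2 gave 2601, 1358 and 1980.0 in WT SPG against 1407, 1703 and 1208 in Nat10-SKO SPG, groups that overlapped. On the deposited ERCC-calibrated values without rescaling, the median of all genes was -0.25, lower calls made up 59.2% of all calls in place of 34.3%, and Wars2 was called lower.

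In PreL, 1 synthetase rose in Nat10-SKO and none fell. Of 36 members, 0 were lower, beside 5.83% of all 13132 genes tested, and 1 was higher (2.78%), beside 5.32%. At an unadjusted p below 0.05, 10 members were lower and 6 higher. No share of all genes was counted at this cut, so these counts show no change particular to the members. With edgeR and DESeq2, 0 were called lower and 1 higher.

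The gene that rose was Lars2, the mitochondrial leucyl-tRNA synthetase (chromosome 9, 123366927 to 123462666, plus strand, mm10). The WT PreL libraries held 4855, 3182 and 2255 normalised units and the Nat10-SKO PreL libraries 6511, 9603 and 11838, with no overlap. The means were 3431 ± 1317 and 9317 ± 2675 (SD, n = 3), 2.72-fold apart, with a log2 fold change of 1.47 (SE 0.28, adjusted p = 0.00888). Lars2 rested on 1154 to 11239 reads a library.

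Lars2 moved over the libraries with Rn45s, the precursor of the ribosomal RNAs, which held 0.0526% to 0.0940% of reads in WT PreL and 0.134% to 0.246% in Nat10-SKO PreL. For every 100 Rn45s reads there were 25.4 ± 6.16 reads of Lars2 in WT PreL and 25.3 ± 1.39 in Nat10-SKO PreL (SD, n = 3), values that overlapped. In SPG the same ratio was 21.6 ± 1.45 and 23.7 ± 6.98 (SD, n = 3). In LZ it was 9.68 ± 2.09 in WT (n = 2) and 39.3 ± 12.7 in Nat10-SKO (n = 3), without overlap, as Rn45s took 0.729% and 0.872% of reads in WT LZ and at most 0.107% in Nat10-SKO LZ. Whether reads of ribosomal RNA enter the count of Lars2 was not tested.

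**Figure D1:**
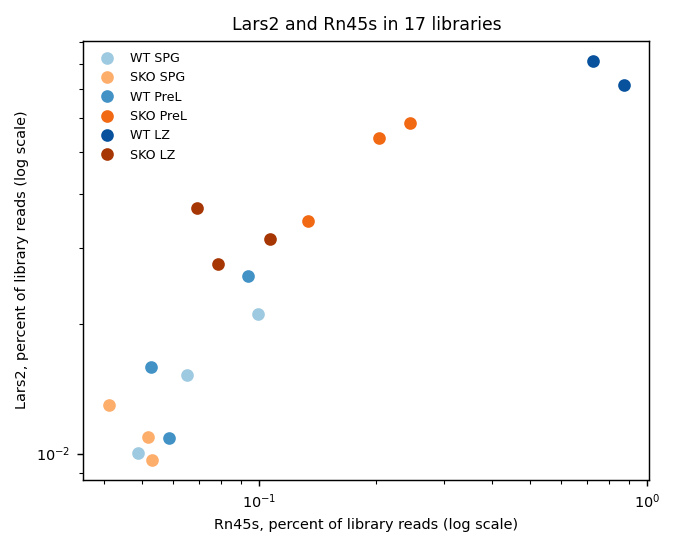
Percent of library reads of Lars2 (vertical, log scale) against that of Rn45s (horizontal, log scale) in the 17 libraries, 1 point each, coloured by group. SPG and PreL libraries run along a common diagonal at 18.3 to 31.6 Lars2 reads per 100 Rn45s reads, with Nat10-SKO PreL (Rn45s 0.134% to 0.246%) above WT PreL; the WT LZ libraries lie far to the right at 0.729% and 0.872% Rn45s.

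Below 2-fold, Aars, Eprs, Gars, Hars, Qars and Wars2 had lower log2 values in Nat10-SKO PreL, between -0.42 for Eprs (adjusted p = 0.0300) and -0.96 for Hars (adjusted p = 0.00354). Farsb (0.66, adjusted p = 0.0169) and Sars (0.77, adjusted p = 0.0285) had higher ones. The cytosolic median was -0.24 and the mitochondrial median 0.03, where the median of all genes was 0.04. Nat10-SKO lay wholly below WT for 12 members and wholly above for 7, beside 20% and 17.4% of all genes. On the deposited ERCC-calibrated values without rescaling, the median of all genes shifted to 0.73, 10 members were called higher in place of 1, and lower calls made up 14.5% of all calls in place of 52.3%. The share of all genes called higher on those values is not given here.

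In LZ, 7 synthetases fell in Nat10-SKO and 1 rose. The genes that fell were Aars, Kars and Wars of the cytosolic class and Aars2, Fars2, Rars2 and Tars2 of the mitochondrial class, and the gene that rose was Wars2. The 7 are 19.4% of the 36 members, where 25.8% of all 13724 genes tested were lower, and the 1 is 2.78%, where 13.4% were higher. The median log2 fold change was -0.37 for cytosolic and -0.34 for mitochondrial enzymes and -0.13 for all genes. edgeR and DESeq2 called the same 8 genes. On the ERCC-calibrated values without rescaling the median of all genes was -0.25, and 8 members were lower and 1 higher. For these counts the share of all genes is not given.

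**Figure D2:**
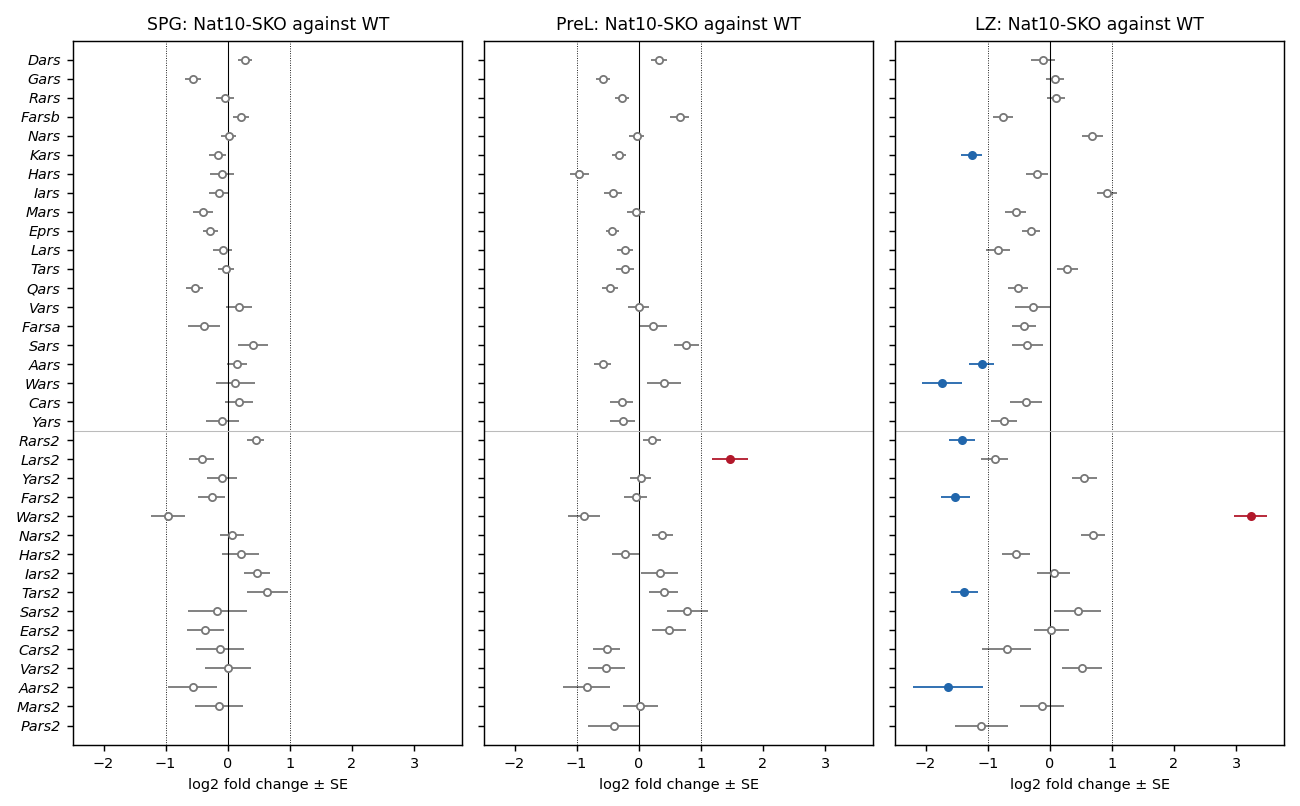
Log2 fold change ± SE of each synthetase in Nat10-SKO against WT at SPG, PreL and LZ (limma; dotted lines at 2-fold); filled blue, lower; filled red, higher; open grey, did not pass. No filled point lies in SPG, Lars2 is the filled point in PreL, and 7 lower and 1 higher points are filled in LZ.

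Wars2, mitochondrial tryptophanyl-tRNA synthetase (chromosome 3, 99141068 to 99239186, plus strand, mm10), was at 482 and 489 in the WT LZ libraries and at 6160, 3476 and 4690 in Nat10-SKO LZ. The means were 486 ± 5.05 (SD, n = 2) and 4775 ± 1344 (SD, n = 3), 9.83-fold apart, with a log2 fold change of 3.23 (SE 0.26, adjusted p = 7.88e-05). Every Nat10-SKO LZ library was above both WT libraries, from 477 to 539 reads against 124 and 165. At SPG and PreL the sign was the opposite, with WT PreL at 682, 1015 and 1170 and Nat10-SKO PreL at 679.6, 390.4 and 468, a difference of -0.89 below the 2-fold limit.

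Wars, the cytosolic tryptophanyl enzyme and an interferon-inducible gene, moved the other way at LZ. It was at 1110.2 and 1689 in WT LZ and at 320.0, 423 and 480.3 in Nat10-SKO LZ, a log2 fold change of -1.74 (SE 0.32, adjusted p = 0.00323). The groups did not overlap at LZ, whereas in PreL they did, with 359, 218 and 190 in WT and 347, 313 and 328 in Nat10-SKO.

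Kars, which gives both the cytosolic and the mitochondrial lysyl enzyme, was at 7102 and 6865 in WT LZ and at 2583, 3191 and 2996 in Nat10-SKO LZ. Its log2 fold change was -1.26 (SE 0.16, adjusted p = 0.000613), and all 3 Nat10-SKO libraries were under the lower WT library. Aars, the alanyl enzyme, was at 3646 and 4711 against 2137, 1989 and 1694, with a log2 fold change of -1.10 (SE 0.20, adjusted p = 0.00287). Without WT LZ 3 the change of Aars was -0.93 and without Nat10-SKO LZ 3 it was -0.99, under the 2-fold limit both times. Exons of Aars share 1326 bases with those of Exosc6 on the same strand, so that reads there cannot be told apart.

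The 4 mitochondrial genes that fell include 2 of the most abundant. Rars2 was at 4724 and 7070 in WT LZ and at 1989, 2266 and 2218 in Nat10-SKO LZ, with a log2 fold change of -1.42 (SE 0.21, adjusted p = 0.00114). Fars2, the mitochondrial phenylalanyl enzyme, was at 3453 and 5275 against 1531, 1603 and 1327, a log2 fold change of -1.52 (SE 0.23, adjusted p = 0.00123). In both genes the WT libraries were above every Nat10-SKO library, and WT LZ 3 was the highest.

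Tars2, the mitochondrial threonyl enzyme, was at 1838 and 2028 in WT LZ and at 686, 721 and 812 in Nat10-SKO LZ, with a log2 fold change of -1.38 (SE 0.22, adjusted p = 0.00162). Aars2, the mitochondrial alanyl enzyme, was at 348 and 434 against 171, 175 and 52.4, with a log2 fold change of -1.64 (SE 0.56, adjusted p = 0.0430). The lowest Aars2 library held 6 reads. Aars2 lost its call whenever a single LZ library was left out, with log2 fold changes from -1.90 to -1.11 and adjusted p from 0.0533 to 0.238.

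Below 2-fold, 6 more members were lower at an adjusted p below 0.05: Farsb (-0.75), Lars (-0.84), Lars2 (-0.89), Mars (-0.55), Qars (-0.51) and Yars (-0.73). Higher were Iars (0.93, adjusted p = 0.00261), Nars (0.68), Nars2 (0.69) and Yars2 (0.56). At an adjusted p below 0.05 with no fold limit, 31.1% of all genes were lower and 19.8% higher. The Nat10-SKO LZ libraries lay wholly below the WT LZ libraries for 18 members, where 39.8% of all genes did so, and wholly above for 8, where 30.3% did. Dars, with a log2 fold change of -0.11, was among the 10 members whose groups overlapped.

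From SPG to PreL, few synthetases changed in either genotype. In WT, 0 of 36 members were lower and 0 higher, where 1.76% and 3.57% of 13530 genes were, and edgeR and DESeq2 also called 0 and 0. At an unadjusted p below 0.05 there were 6 and 3. With no share of all genes counted at that cut, these counts show no change particular to the members. In Nat10-SKO, 0 were lower (0.939% of all genes) and 1 was higher (3.06%). That gene was Lars2, at 2365, 2855 and 2015 in Nat10-SKO SPG and 7309, 10792 and 13355 in Nat10-SKO PreL on the scale of all libraries, with a log2 fold change of 2.09 (SE 0.27, adjusted p = 0.000167). On the ERCC-calibrated values without rescaling, 17 members were called higher in Nat10-SKO, the median of all genes was 0.98, and lower calls were 0.461% of all calls in place of 23.5%. The share of all genes beside the 17 is not given, so this count shows no change particular to the members.

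From PreL to LZ in WT, 4 synthetases rose and 1 fell. Lars2 went from 5513, 3591 and 2544 in WT PreL to 15808 and 18080.2 in WT LZ, a log2 fold change of 2.19 (SE 0.30, adjusted p = 2.32e-05). Wars (1.20, adjusted p = 0.00623), Fars2 (1.11, adjusted p = 0.000977) and Tars2 (1.17, adjusted p = 0.00544) also rose, the WT LZ libraries being above the WT PreL libraries in each.

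Wars2 fell from 774, 1146 and 1320.2 in WT PreL to 232 and 229 in WT LZ, by 2.14 on the log2 scale (SE 0.31, adjusted p = 3.34e-05). The 4 that rose stand beside 22.3% of all genes and the 1 that fell beside 6.65%. The changes in Fars2, Tars2 and Wars went under the 2-fold limit when single libraries were left out, to 0.83 for Fars2 and 0.92 for Wars without WT LZ 3, to 0.96 for Fars2 without WT PreL 4 and to 0.98 for Tars2 without WT PreL 2. On the ERCC-calibrated values without rescaling the median of all genes was 1.80, and 33 members were called higher and 0 lower. The share of all genes called higher on those values is not given here. Lower calls were 0.204% of all calls in place of 23.0%, and with edgeR they were 37.1%.

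From PreL to LZ in Nat10-SKO, 2 synthetases fell and 1 rose. Rars2 fell from 3770, 3112 and 3983 to 948, 1101 and 1062, by 1.79 on the log2 scale (SE 0.16, adjusted p = 8.83e-08). Lars, the cytosolic leucyl enzyme, fell from 2551, 2322 and 2730 to 1029, 1190 and 1417, by 1.07 (SE 0.14, adjusted p = 1.34e-05). Without Nat10-SKO LZ 1 the change of Lars was -0.95.

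Wars2 rose from 763, 439 and 528 to 2935, 1689 and 2244 in Nat10-SKO, with a log2 fold change of 1.97 (SE 0.27, adjusted p = 1.83e-05), and its libraries did not overlap between the stages. The 2 lower members stand beside 5.05% and the 1 higher beside 8.22% of all genes. On the ERCC-calibrated values without rescaling the median of all genes was 0.76, 0 members were lower and 7 higher, and lower calls were 3.72% of all calls in place of 38.1%. The share of all genes beside the 7 is not given.

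**Figure D3:**
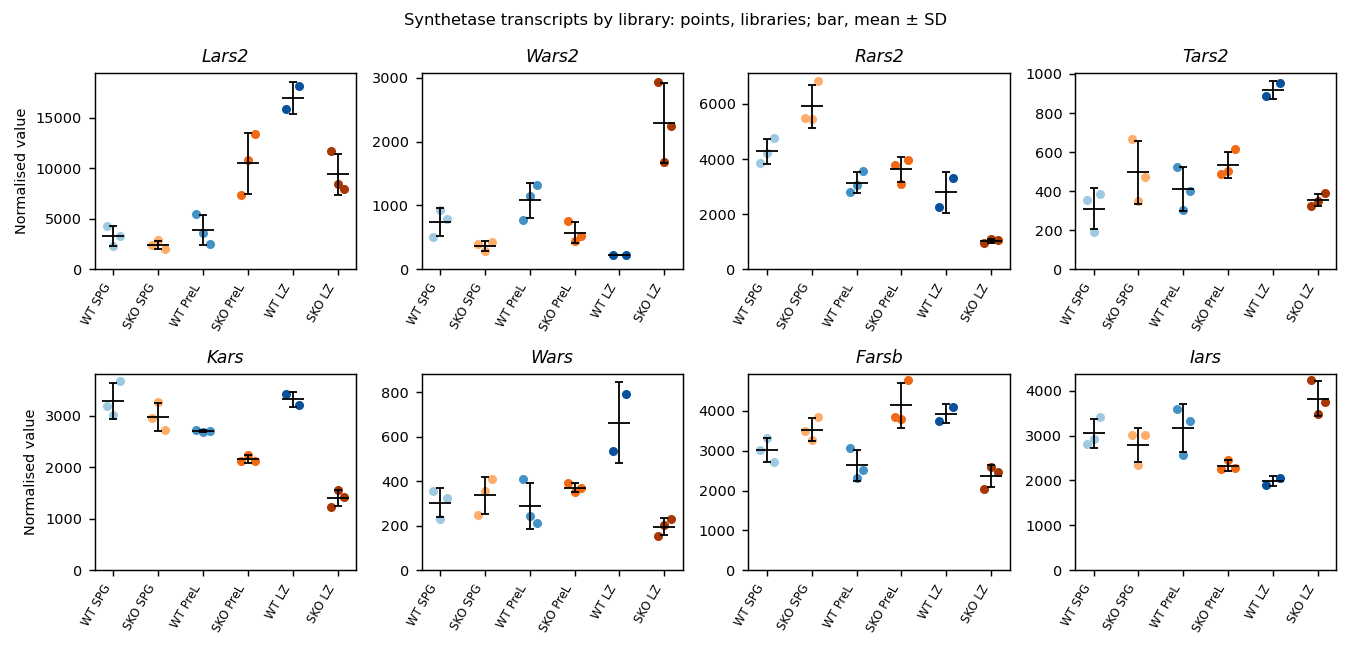
Normalised value (scale of all libraries, axis from 0) of 8 synthetases in each of the 17 libraries; points, libraries; bar, mean ± SD per group. Wars2 is highest in Nat10-SKO LZ and lowest in WT LZ, Rars2 is lowest in Nat10-SKO LZ, and Lars2 is high in Nat10-SKO PreL and in both LZ groups. The 3 Nat10-SKO LZ libraries of Iars lie above both WT LZ libraries.

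The genotype effect was compared between stages by an interaction term, counted at an adjusted p below 0.05 with no fold limit. Between SPG and PreL it passed for 0 members as lower and for 1 as higher, Lars2, beside 0.111% and 0.251% of all genes. Lars2 had an interaction of 1.87 on the log2 scale (SE 0.37, adjusted p = 0.0432). The call did not stand with edgeR, with a pseudocount of 1, with no filter, or in 8 of 12 fits that left out 1 library. On the ERCC-calibrated values without rescaling, where the median of all genes was 0.94, 22 members were higher and lower calls were 2.42% of all calls in place of 30.6%. The share of all genes beside the 22 is not given, so this count shows no change particular to the members.

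Between PreL and LZ, 9 members had a lower genotype effect at LZ (25.0% of 36, beside 23.1% of all genes) and 6 a higher one (16.7%, beside 15.1%). These comparisons share the libraries of the PreL and LZ groups. The median interaction of all genes was -0.31 with the main scaling and -1.12 on the ERCC-calibrated values without rescaling, where 21 members were lower and 1 higher and lower calls were 89.8% of all calls in place of 60.5%. The share of all genes beside the 21 is not given. The PreL and LZ fold changes that follow come from the fits within each stage.

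Wars2 had the interaction furthest from 0, 4.12 (SE 0.41, adjusted p = 2.48e-07), its difference being -0.89 at PreL and 3.23 at LZ. For Lars2 it was -2.33 (SE 0.40, adjusted p = 0.000162), with 1.47 at PreL and -0.89 at LZ, where WT LZ was at 32836 and 38541 and Nat10-SKO LZ at 24628, 17385 and 16611. Wars2 and Lars2 thus had differences of opposite sign at the 2 stages.

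Wars (-2.10, SE 0.44, adjusted p = 0.00104), Tars2 (-1.74, SE 0.42, adjusted p = 0.00321), Rars2 (-1.60, SE 0.23, adjusted p = 3.10e-05) and Fars2 (-1.44, SE 0.31, adjusted p = 0.00148) had genotype differences at PreL of 0.40, 0.40, 0.21 and -0.05, none past the test. In PreL Rars2 was at 2483, 2720 and 3154 in WT and 3358, 2769 and 3531 in Nat10-SKO, with overlap. Tars2 was at 463, 271 and 356 against 435, 446 and 544, and Fars2 at 1034, 813 and 678 against 864, 809 and 735. The groups of each overlapped at PreL and did not at LZ.

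Farsb, the beta subunit of the cytosolic phenylalanyl enzyme, was at 2705, 2053 and 2236 in WT PreL and 3418, 3385 and 4244 in Nat10-SKO PreL, then at 7812 and 8754 in WT LZ and 4308, 5326 and 5153 in Nat10-SKO LZ. The Nat10-SKO libraries were all above WT at PreL and all below at LZ, an interaction of -1.39 (SE 0.21, adjusted p = 5.08e-05). Sars, the seryl enzyme, was at 635, 386 and 484 against 832, 849 and 849.8 in PreL and at 2337 and 1487 against 1474, 1574 and 1310 in LZ, an interaction of -1.11 (SE 0.35, adjusted p = 0.0180) that was -0.77 without WT LZ 2 (adjusted p = 0.118). Only at PreL did the groups of Sars not overlap.

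Kars was at 2398, 2386 and 2391 in WT PreL and 1885, 2001 and 1889 in Nat10-SKO PreL, below WT at both stages and further below at LZ (interaction -0.92, SE 0.19, adjusted p = 0.000753). Lars was at 2703, 2343 and 2854 against 2272, 2066 and 2420 in PreL and at 4181 and 4813 against 2160, 2448 and 2961 in LZ, with overlap at PreL alone (interaction -0.59, SE 0.22, adjusted p = 0.0370). The call for Lars was lost in 6 of 11 fits without 1 library.

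The 5 cytosolic genes with a higher genotype effect at LZ were Iars, Hars, Nars, Gars and Tars, and 4 of these reversed on the ERCC-calibrated values without rescaling (Gars -0.18, Hars -0.087, Nars -0.13, Tars -0.34), while Iars stayed positive at 0.50. Iars, the isoleucyl enzyme, was at 3161, 2273 and 2957 in WT PreL and 2010.4, 2192 and 2013 in Nat10-SKO PreL, then at 3956 and 4403 in WT LZ and 8914, 7169.8 and 7816 in Nat10-SKO LZ. It was below WT in every PreL library and above WT in every LZ library, an interaction of 1.36 (SE 0.22, adjusted p = 8.18e-05).

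Hars, the histidyl enzyme, was at 1718, 1604 and 1645 in WT PreL and 806, 1009.9 and 747 in Nat10-SKO PreL, then at 3099.8 and 3326 against 2914, 3068 and 2437 in LZ. Its interaction was 0.78 (SE 0.25, adjusted p = 0.0205), and did not pass without WT LZ 2 (adjusted p = 0.0536) or without Nat10-SKO LZ 2 (adjusted p = 0.0525). Nat10-SKO was below WT at both stages, by less at LZ on this scale. Exons of Hars and Hars2 share 195 bases on opposite strands. Those of Farsb share 248 bases with Sgpp2, and those of Fars2 share 501 bases with Nrn1, also on opposite strands. Whether counting used strand is not stated.

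Gars, the glycyl enzyme for both compartments, was at 4991, 5008 and 4615 in WT PreL and 3339.5, 3437 and 3028 in Nat10-SKO PreL, without overlap. In LZ it was at 8110.3 and 7989 against 8423, 9210.0 and 8096, with overlap, and the interaction was 0.69 (SE 0.17, adjusted p = 0.00450). Nars, the asparaginyl enzyme, was at 3981, 3775 and 4330.3 against 3883, 3716 and 4189.7 in PreL and at 5554 and 6656 against 9028, 9312 and 11048 in LZ (interaction 0.74, SE 0.18, adjusted p = 0.00348). The genotypes of Nars overlapped at PreL and not at LZ.

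Tars, the threonyl enzyme, was at 2109, 2195 and 2819 in WT PreL and 1984, 1903 and 2153 in Nat10-SKO PreL, and at 3646 and 2951 against 4263, 3905 and 3790.3 in LZ. Its interaction of 0.53 (SE 0.20, adjusted p = 0.0426) was lost in 7 of 11 fits without 1 library. The remaining 21 members, among them Cars, Dars, Eprs, Farsa, Mars, Qars, Vars and Yars and the mitochondrial Cars2, Ears2, Hars2, Iars2, Mars2, Nars2, Pars2, Sars2, Vars2 and Yars2, did not pass between PreL and LZ.

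The promoters of the members were searched for the element through which ATF4 acts on amino acid response genes, TGATGNAA, on both strands, from 250 bases before to 50 bases after the start of the gene in RefSeq (GRCm38.p6). It was found in 5 of 27 members with a promoter entry (18.5%), beside 1219 of 27025 genes (4.51%). The 5 were Aars, Gars, Iars, Tars and Yars, all among the 13 cytosolic members with an entry (38.5%), and 0 of 14 mitochondrial members had a match. A match in each of the 5 genes is shown, and a link between a match and the genotype effects was not tested. Capitals mark the match, read 5′ to 3′ on the strand of the gene, so that an element lying on the opposite strand appears as its reverse complement.
Aars (chr8:111033840-111033869, plus strand, match 9 bases after the start): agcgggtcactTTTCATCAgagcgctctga
Gars (chr6:55037960-55037989, plus strand, match 30 bases before the start): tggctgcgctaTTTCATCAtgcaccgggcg
Iars (chr13:49682126-49682155, plus strand, match 7 bases after the start): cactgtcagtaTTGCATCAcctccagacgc
Tars (chr15:11399655-11399684, minus strand, match 15 bases before the start): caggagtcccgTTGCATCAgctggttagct
Yars (chr4:129189895-129189924, plus strand, match 3 bases after the start): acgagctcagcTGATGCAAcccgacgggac
A match is a description of these letters, not a site of binding. Among these 5 genes, Aars fell at LZ (-1.10), Yars was at -0.73, Gars at 0.09, Tars at 0.28 and Iars at 0.93 on the log2 scale.

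Of 25 other amino acid response genes driven by ATF4, 0 of 22 tested fell and 2 rose in Nat10-SKO SPG, 0 of 20 fell and 1 rose in PreL, and 1 of 22 fell and 5 rose in LZ. These are 9.09% higher in SPG, 5% higher in PreL, and 4.55% lower and 22.7% higher in LZ, beside 3.95%, 5.32%, 25.8% and 13.4% of all genes. Atf3, a transcription factor of the stress response, rose in SPG from 19.7 ± 17.5 to 221 ± 88.8 (SD, n = 3; log2 fold change 3.12, adjusted p = 0.00435), and Nupr1, a stress-induced chromatin protein, by 2.53 (adjusted p = 0.00987). Gpt2, a mitochondrial alanine transaminase, rose in PreL (2.43, adjusted p = 0.0389).

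In LZ, Atf3 rose by 3.12 (adjusted p = 0.0105), Pycr1, an enzyme of proline synthesis, by 2.77 (adjusted p = 0.00176) and Nupr1 by 2.72 (adjusted p = 0.0143). Ddit3, a transcription factor of the stress response, fell by 2.70 (adjusted p = 0.00193), and its exons share 68 bases with those of Mars on the opposite strand. The medians of this list were 0.09, 0.16 and 0.49 in SPG, PreL and LZ, beside 0.00, 0.04 and -0.13 for all genes and -0.06, -0.24 and -0.37 for the cytosolic synthetases. Macrophage and Leydig cell markers were higher in Nat10-SKO at SPG as well, like the peritubular myoid cell markers above, at 0.00788% to 0.0154% against 0.000768% to 0.00200% of reads and 0.00979% to 0.0327% against 0.000690% to 0.00263% (Emr1 and Lhcgr at 0 in WT), and their part in these values was not tested.

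The 3 scaffold genes of the multi-synthetase complex, Aimp1, Aimp2 and Eef1e1, passed the test in none of the 3 stages by limma, with Eef1e1 at 0.96 in LZ (adjusted p = 0.00158) just under the 2-fold limit. Of 4 genes for trans-editing and proofreading in the table, which act against wrong amino acids on tRNAs, Prorsd1 rose in Nat10-SKO LZ from 2333 ± 321 (SD, n = 2) to 16134 ± 3546 (SD, n = 3), a log2 fold change of 2.77 (adjusted p = 7.06e-05). It was the 1 of the 4 called higher (25%), beside 13.4% of all genes. In SPG and PreL 0 of these 4 passed.

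Among 7 genes of other enzymes that make or finish aminoacyl-tRNA, 1 fell in SPG, 0 passed in PreL, and 2 fell and 1 rose in LZ. The LZ counts are 28.6% and 14.3% of the 7, near the 25.8% and 13.4% of all genes. Mtfmt, which formylates the initiator methionyl-tRNA of mitochondria, rose in LZ from 8322 ± 1716 (SD, n = 2) to 68275 ± 20393 (SD, n = 3), by 3.01 (adjusted p = 0.000128). Sephs2, of selenocysteine synthesis, fell by 2.32 (adjusted p = 0.000134), and Gatc, a subunit of the enzyme that makes mitochondrial glutaminyl-tRNA, fell by 1.07 in LZ (adjusted p = 0.0149) and by 1.57 in SPG (adjusted p = 0.0200). Xpot, which carries tRNA out of the nucleus, rose in SPG (1.10, adjusted p = 0.0190) and PreL (1.04, adjusted p = 0.0193) and in LZ neither Xpot nor Ddx1, of the tRNA ligase complex, passed.

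From PreL to LZ, Mtfmt and Prorsd1 followed the direction of Wars2 in each genotype. Mtfmt fell by 2.19 in WT and rose by 1.71 in Nat10-SKO, and Prorsd1 fell by 1.46 in WT and rose by 1.77 in Nat10-SKO, beside -2.14 and 1.97 for Wars2. Wars2, Mtfmt and Prorsd1 were singled out after their values were seen, and the comparisons share the LZ and PreL libraries.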

How the data were processed

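RNA-seq was analysed in 17 libraries of 6 groups. The authors counted reads mapping to 1 place, per gene (mm10; the submitters' notes name TopHat2 2.1.1, HTSeq 0.11.2, Cufflinks 2.2.1 and DESeq2, and also mm9) and deposited calibrated signal values, each library's counts multiplied by 1 factor based on the amount of cells put in and on ERCC spike-in RNA. A WT SPG library had a factor of 1, so its deposited values are counts. Whole reads were recovered for 100% of values (tolerance 0.01), in totals of 5812380 to 13820953.

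Size factors (median of ratios) were divided out, genes averaging 10 or more recovered reads entered the fit, and log2(value + 10) was tested with limma 3.58.1 (trend, Benjamini-Hochberg) in R 4.3.3. Fold changes are on this log2 scale, which understates low genes. Genotypes were compared within a stage, and stages and interactions in 1 fit of all libraries. edgeR 4.0.16 and DESeq2 1.42.0 on recovered reads, other scalings, pseudocounts of 1 and 50, no filter, a replicate block and left-out libraries served as alternatives. Levels were divided by the length of all annotated exons of a gene, merged (GENCODE, mm10). Steps were tested on simulated data.

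Values in every library are given for members that passed between the genotypes or in an interaction and for the highest and lowest of each class. Of the other lists, at most 4 genes a comparison are named. The members and lists were chosen with earlier results of these data known. A further promoter match is not reported here.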

Additional observations from a re-analysis of the deposited data

Results flagged for a closer look

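The results here are those in which the genotype effect differed between 2 stages by the interaction term of limma (log2 scale, adjusted p below 0.05). Between SPG and PreL this was Lars2, at 1.87 (adjusted p = 0.0432).

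Between PreL and LZ the effect was lower at LZ for Lars2 (-2.33), Wars (-2.10), Tars2 (-1.74), Rars2 (-1.60), Fars2 (-1.44), Farsb (-1.39), Sars (-1.11), Kars (-0.92) and Lars (-0.59). It was higher for Wars2 (4.12), Iars (1.36), Hars (0.78), Nars (0.74), Gars (0.69) and Tars (0.53), of which Hars, Nars, Gars and Tars reversed on the ERCC-calibrated values without rescaling.

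Of these genes, Wars2, Lars2, Farsb and Iars had libraries wholly on opposite sides of WT at the 2 stages.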

How the results depend on the processing

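Over 34 calls of single members and 556 alternative settings, 499 kept direction and call, 53 kept direction and lost the call, and 4 reversed; DESeq2 and a pseudocount of 50 changed none of the 34. The 4 reversals were all in the interaction of LZ against PreL on the ERCC-calibrated values without rescaling (Gars -0.18, Hars -0.087, Nars -0.13, Tars -0.34). On those values the count of members called was 1 lower in SPG, 10 higher in PreL, 0 lower and 33 higher from PreL to LZ in WT, 17 higher from SPG to PreL in Nat10-SKO, 0 lower and 7 higher from PreL to LZ in Nat10-SKO, 22 higher in the interaction of PreL against SPG, and 21 lower and 1 higher in that of LZ against PreL. The shares of all genes called on those values are not given, so these counts show no change particular to the members. With TMM scaling, 2 were lower from PreL to LZ in WT. With edgeR, 1 was lower in SPG, 2 were lower and 2 higher from PreL to LZ in WT, and 0 higher in the interaction of PreL against SPG, as with a pseudocount of 1 and with no filter. With DESeq2, 1 was lower in SPG and 2 (Aars and Hars) in the interaction of PreL against SPG. With no fold limit, 3 were lower and 1 higher in SPG, 6 and 3 in PreL, 13 and 5 in LZ, 1 and 1 from SPG to PreL and 8 and 7 from PreL to LZ in WT, 4 lower from SPG to PreL and 6 and 4 from PreL to LZ in Nat10-SKO.

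Leaving out 1 library gave 5 to 7 lower and 1 to 2 higher in LZ, 0 to 1 lower and 1 to 1 higher in PreL, and 0 to 1 lower in SPG. From PreL to LZ it gave 3 to 5 higher in WT and 1 to 3 lower in Nat10-SKO. The interactions gave 0 to 1 higher for PreL against SPG, and 8 to 10 lower and 4 to 6 higher for LZ against PreL. Aars2 in LZ was also lost with a pseudocount of 1 (adjusted p = 0.0616), with no filter (0.0643) and with WT LZ thinned to 5812380 reads (0.0506). The cause of these changes was not tested.

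Libraries with the same replicate number had correlations of deviations from -0.19 to 0.13. With at most 3 shared numbers a comparison, these cannot show whether such libraries came from the same animal. With a replicate block, 27 of 29 calls stood; Tars and Lars2 were lost in the interactions, with 0 members higher in that of PreL against SPG. No paired analysis was possible for LZ against PreL in WT because the groups share 1 number. Depth limits Pars2 and Aars2, with 2 to 38 and 6 to 119 reads a library.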
